A study of Mus musculus with 8 samples.

Results

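The genes described here encode 10 cytokines that donor T cells can release in graft-versus-host disease (GVHD): Ifng, Il2, Il3, Csf2, Il4, Il17a, Il22, Lif, Il10 and Tgfb1. They were chosen by name, with earlier results of these data known. All 10 were present among the 25078 gene rows of the deposited tables and among the 12428 genes that passed the filter on low counts. RNA was sequenced from donor T cells sorted from the spleen of WT BALB/c recipients on day 6 after hematopoietic cell transplantation (HCT). Recipients had been lethally irradiated and given C57BL/6 T cells together with T cell-depleted bone marrow from WT C57BL/6 donors, so the marrow was WT in every group. Donor T cells were WT or carried floxed Stat3 alleles and a Cre transgene under Cd4 regulatory sequences (STAT3KO), which act during thymic development and so remove the floxed part of the gene in both CD4 and CD8 T cells. Donor cells were gated by H-2Kb and TCRβ and sorted into a CD4 and a CD8 fraction, so each genotype gave a CD4 group and a CD8 group, 4 groups in all with 2 libraries each. A library combined cells of 3 recipients, so each value is that of a pool and the spread between replicates is that between pools. The paper describes the recipients of WT T cells as having GVHD and those of STAT3KO T cells as without it. Donor genotype and recipient GVHD therefore went together, and their separate parts in the differences below were not tested.

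Cytokines are secreted proteins through which T cells act on other cells, and alloreactive T cells in GVHD release inflammatory cytokines such as IFN-γ, encoded by Ifng, and GM-CSF, encoded by Csf2. STAT3 is a transcription factor activated downstream of receptors for IL-6, IL-21, IL-23 and IL-10, and it is best known in CD4 T cells for the Th17 program, whose cytokines include IL-17A and IL-22. IL-10 and TGF-β1 restrain immune responses, and LIF is a cytokine of the IL-6 family that itself signals through STAT3.

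The promoters of the 4 genes that fell in STAT3KO CD4 T cells (Lif, Il17a, Il22 and Il4) and of Ifng are shown because the comparisons below turn on them. They are the 250 bases before the RefSeq start on GRCm38.p6 (mm10), written 5′ to 3′ on the strand of the gene. Capitals mark the AP-1 motif TGANTCA or the STAT palindrome TTCNNNGAA, each of which reads the same on both strands.
Lif, chr11:4257318-4257567, plus strand: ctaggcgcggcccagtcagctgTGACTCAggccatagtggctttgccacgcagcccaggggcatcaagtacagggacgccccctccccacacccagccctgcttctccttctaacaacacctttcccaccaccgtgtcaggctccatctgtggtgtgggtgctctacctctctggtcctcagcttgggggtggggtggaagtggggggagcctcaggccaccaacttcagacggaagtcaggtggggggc
Il17a, chr1:20730655-20730904, plus strand: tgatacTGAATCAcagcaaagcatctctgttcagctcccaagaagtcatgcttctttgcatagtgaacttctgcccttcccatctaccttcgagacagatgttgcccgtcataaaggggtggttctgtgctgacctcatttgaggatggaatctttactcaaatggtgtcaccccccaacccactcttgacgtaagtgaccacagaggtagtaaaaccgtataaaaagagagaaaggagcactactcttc
Il22, chr10:118204714-118204963, plus strand: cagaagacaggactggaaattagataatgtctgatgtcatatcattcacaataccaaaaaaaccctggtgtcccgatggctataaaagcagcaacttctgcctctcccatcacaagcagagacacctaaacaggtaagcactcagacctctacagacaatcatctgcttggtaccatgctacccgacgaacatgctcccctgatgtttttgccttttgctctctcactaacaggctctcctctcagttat
Il4, chr11:53618666-53618915, minus strand: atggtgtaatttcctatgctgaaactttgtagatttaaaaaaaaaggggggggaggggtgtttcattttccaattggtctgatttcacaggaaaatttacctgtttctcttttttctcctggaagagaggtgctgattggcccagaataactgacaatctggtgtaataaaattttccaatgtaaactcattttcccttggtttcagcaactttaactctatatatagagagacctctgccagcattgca
Ifng, chr10:118440796-118441045, plus strand: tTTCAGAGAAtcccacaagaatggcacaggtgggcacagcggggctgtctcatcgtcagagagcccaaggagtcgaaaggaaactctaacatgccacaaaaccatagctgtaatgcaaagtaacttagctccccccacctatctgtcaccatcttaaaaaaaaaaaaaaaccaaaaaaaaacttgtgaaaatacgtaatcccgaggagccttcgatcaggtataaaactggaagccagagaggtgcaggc
An AP-1 motif stood 228 bases before the start of Lif (TGACTCA) and 244 bases before that of Il17a (TGAATCA). A STAT palindrome stood 249 bases before the start of Ifng (TTCAGAGAA). Within 250 bases before and 50 after the start, 7.81% of the 32851 RefSeq promoters held TGANTCA and 8.3% held TTCNNNGAA, and no window of the 10 genes held both. The windows of Il22 and of the Il4 start shown held neither motif, and a second RefSeq start of Il4, within the gene, held TTCATGGAA, which began 4 bases before that start. The windows of Il2, Il3, Csf2 and Tgfb1 held neither motif, and the table matched 9 of the 10 genes, all but Il10. A match of letters is a description and not evidence of binding.

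The 10 genes are protein coding, and several lie in cytokine clusters. On mm10, Csf2 (chromosome 11, 54247270 to 54249899) and Il3 (chromosome 11, 54265085 to 54267279) are neighbours on the minus strand, 15185 bases apart, and Il4 (chromosome 11, 53612461 to 53618665) lies near Il13, 12657 bases away. Il22 (chromosome 10, 118204964 to 118210046) and Ifng (chromosome 10, 118441046 to 118445894) are 230999 bases apart on the plus strand. Il17a (chromosome 1, 20730905 to 20734496) neighbours Il17f. The others are Lif (chromosome 11, 4257568 to 4272514), Il10 (chromosome 1, 131019845 to 131024970), Il2 (chromosome 3, 37120716 to 37125954) and Tgfb1 (chromosome 7, 25687002 to 25705077). In GENCODE M21, Ifng shared 336 exon bases with Gm49751 on its own strand and Csf2 shared 96 with the antisense gene Gm12223. Neither partner has a row in the deposited tables, and whether the counting used strand is not given in the sources used here, so the counts of Ifng and Csf2 are uncertain to that extent.

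The libraries held between 20171396 and 23282757 counts. Levels within a gene are given as counts scaled to library size by TMM (CPM, the usual unit of edgeR), and levels between genes as the authors' RPKM, which also divides by exon length. Over all its exons, Stat3 averaged 432 ± 5.19 CPM with WT and 140 ± 2.22 CPM with STAT3KO donors in the CD4 groups, and 433 ± 3.15 and 131 ± 16.5 CPM in the CD8 groups (SD, n = 2). The 8 T cell markers summed to between 5128 and 5866 CPM in every library, Cd4 was at most 8.16 CPM in CD8 libraries and Cd8a at most 16 CPM in CD4 libraries. The 8 macrophage and monocyte markers summed to between 23.5 and 57.8 CPM in the replicate 1 libraries and between 73.4 and 141 CPM in the replicate 2 libraries, with all 8 detected. The 7 markers of mast cells and basophils, a source of IL-4 in spleen, summed to between 0.482 and 6.13 CPM. These sums were highest in the STAT3KO replicate 2 libraries, at 5.76 CPM for CD4 and 6.13 CPM for CD8. Prss34 was at most 2.21 CPM, Cpa3 at most 1.55 CPM and Ms4a2 at most 0.271 CPM. In bulk samples, fewer cells of a type and less RNA per cell cannot be told apart.

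Ifng led the 10 genes in all 4 groups. Among CD4 libraries its RPKM was 307 and 196 with WT and 336 and 217 with STAT3KO donors. Among CD8 libraries it was 542 and 398 with WT and 426 and 308 with STAT3KO donors. In WT CD4 T cells, Tgfb1, Il10 and Lif followed at mean RPKM levels of 41.3 ± 12.6, 39.1 ± 13.5 and 34.6 ± 12.2 (SD, n = 2), and the libraries of these neighbours overlapped. Csf2 (13.2 ± 4.28 RPKM), Il4 (7.73 ± 5.18) and Il2 (4.69 ± 1.22) came next, with overlap between Csf2 and Il4 and between Il4 and Il2, and Il22, Il17a and Il3 lay at mean RPKM levels of 2.15, 1.06 and 0.890 with overlapping libraries. In STAT3KO CD4 T cells no neighbours in the order overlapped: Il10 came after Ifng at 109 ± 4.43 RPKM, then Tgfb1 at 43.5 ± 9.29, Csf2 at 13.5 ± 1.98 and Lif at 6.40 ± 2.43. In WT CD8 T cells the order was Ifng, Tgfb1, Il10, Csf2, Il17a and Lif, with Tgfb1 and Il10 overlapping, Csf2 and Il17a overlapping, and Il17a and Lif overlapping, and below them Il2 and Il22 overlapping. In STAT3KO CD8 T cells Il10 (72.4 ± 9.20 RPKM) again stood above Tgfb1 (40.5 ± 8.83), followed by Csf2 at 6.70 ± 0.172 RPKM, with the remaining 6 genes at mean levels of 0.793 RPKM or lower, among which Lif, Il17a and Il2 overlapped as neighbours, as did Il4 and Il3.

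**Figure D1:**
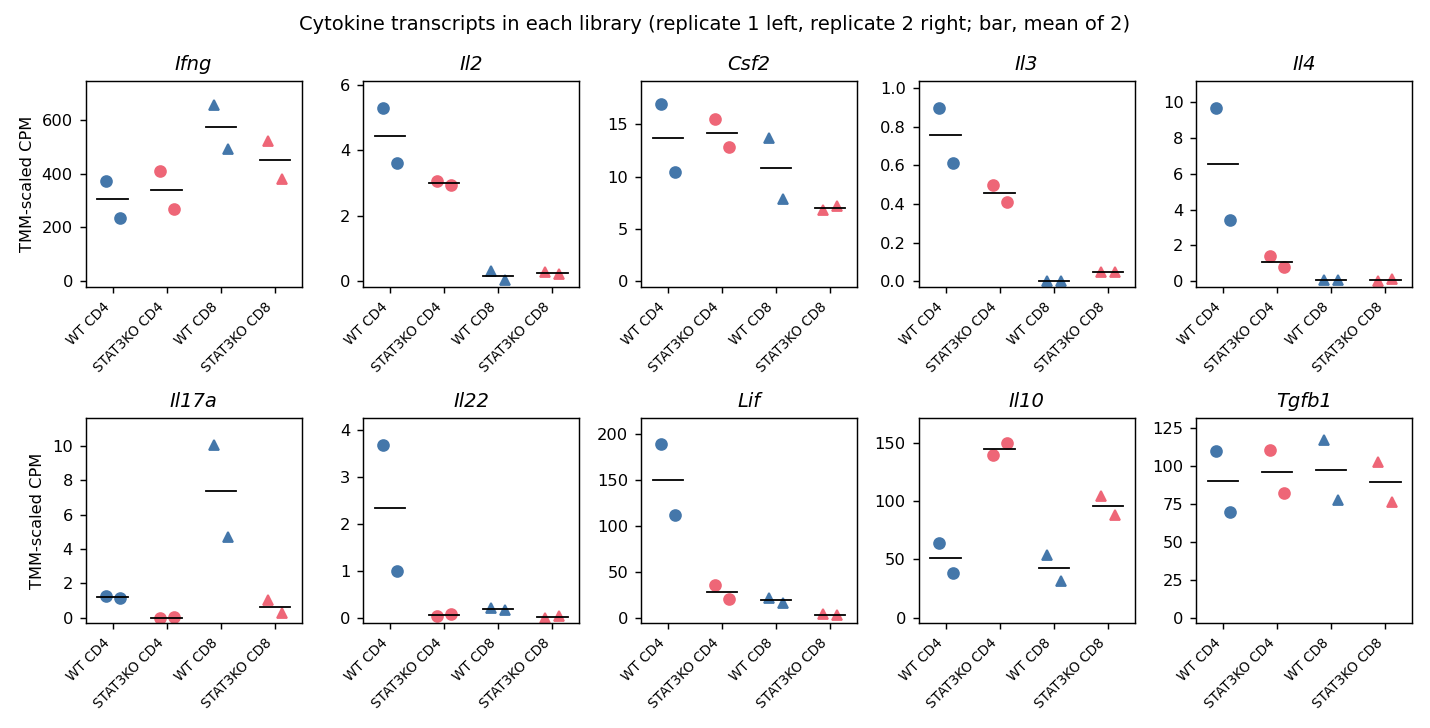
TMM-scaled CPM of each cytokine gene (y axis, linear, with the lower limit just under 0, one panel per gene) in the 8 libraries, by group on the x axis. Points are libraries (circles CD4, triangles CD8, blue WT, red STAT3KO) and bars are means of 2. Lif lies lower and Il10 higher in STAT3KO than in WT libraries of both cell types, and Tgfb1 spans between 69.8 and 117 CPM with all groups overlapping.

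By share of the summed RPKM of the 10 genes, Ifng made up 63.0% and 64.3% of WT and 64.6% and 56.1% of STAT3KO CD4 libraries, and 81.5% and 84.2% of WT and 76.0% and 74.0% of STAT3KO CD8 libraries. Il10 made up 9.97% and 9.69% of WT against 20.3% and 28.9% of STAT3KO CD4 libraries, and 6.21% and 5.04% of WT against 14.1% and 15.8% of STAT3KO CD8 libraries. Lif made up 8.86% and 8.54% of WT against 1.56% and 1.21% of STAT3KO CD4 libraries. The ratio of Ifng to Il10 RPKM was 6.31 and 6.64 in WT against 3.18 and 1.94 in STAT3KO CD4 libraries, and 13.1 and 16.7 in WT against 5.40 and 4.67 in STAT3KO CD8 libraries. The STAT3KO libraries lay below the WT libraries of the same cell type. With 2 libraries against 2, an exact permutation test cannot give a p below 0.333, so no test of the ratio is given.

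**Figure D2:**
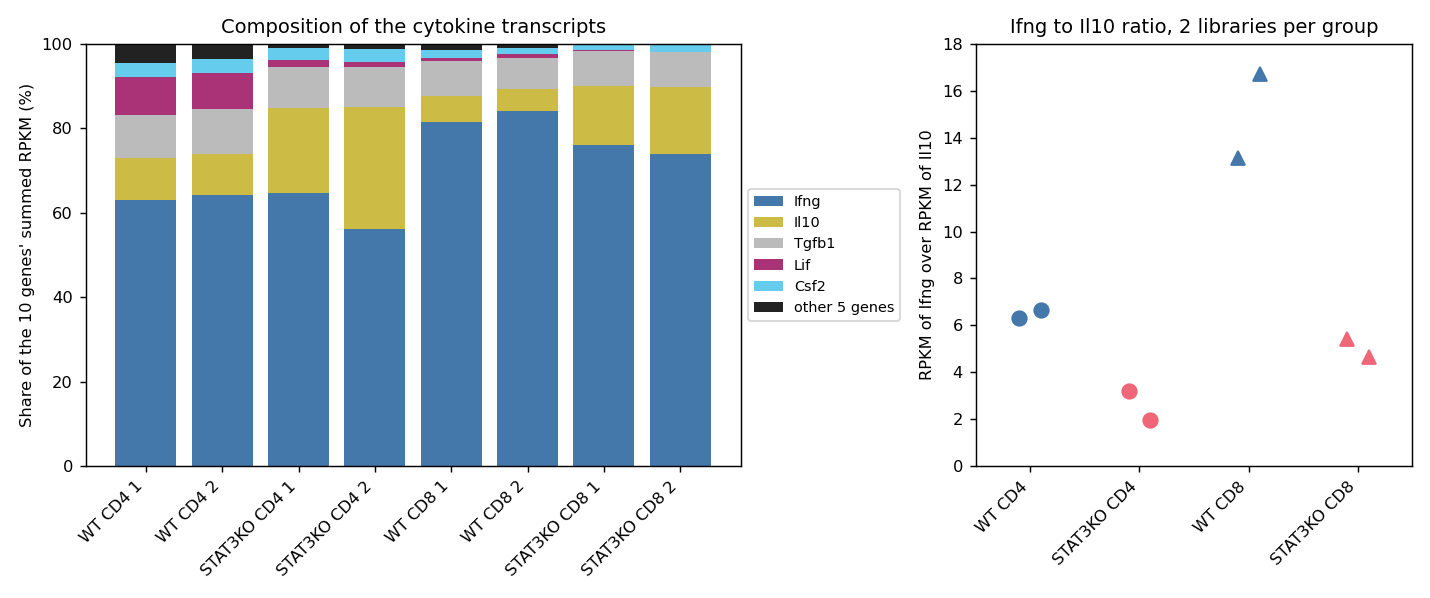
Left, share of the 10 genes' summed RPKM in each library (y axis, percent; stacked bars, with Il2, Il3, Il4, Il17a and Il22 as the other 5 genes). Right, RPKM of Ifng over RPKM of Il10 (y axis, linear from 0) for the 2 libraries of each group, which ranges between 1.94 and 16.7.

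The difference between STAT3KO and WT donors, called the effect of STAT3 deficiency below, was tested in CD4 T cells first. Of the 10 genes, Il10 rose and Lif, Il4, Il17a and Il22 fell, so that 5 were called (edgeR quasi-likelihood test, adjusted p under 0.05 over all genes tested) against 11.6% of all genes tested. Called higher were 1 of 10 genes against 6.54% of all genes, and called lower 4 of 10 against 5.08%. Il22 reached the filter's minimum count of 10 only in WT CD4 libraries, and Il17a reached it in no STAT3KO CD4 library. Both entered the test through groups where they are high, so their lower calls add no independent support to this count. Ifng, Il2, Il3, Csf2 and Tgfb1 were not called. With the replicate number as a block, the same 5 genes were called, against 30.1% of all genes. The groups did not overlap for 7 of the 10 genes, against 53.5% of all genes tested. The median log2 fold change over the 10 genes was -0.65, also with low-count genes at the bound of their interval, against 0.02 over all genes tested. The number called was 3 without WT CD4 replicate 2 and 1 (Lif) without either STAT3KO CD4 library, where the lone library of the group is assumed to vary like the others.

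STAT3KO CD8 T cells had less Lif and Il17a, and no member was called higher in the fit without a block, although Il10 did not overlap between the genotypes and was higher with STAT3KO donors. Thus 2 of the 10 genes were called against 2.07% of all genes tested (higher, 0 of 10 against 1.34%; lower, 2 of 10 against 0.732%). Il17a had 21 and 6 counts in the STAT3KO CD8 libraries and reached the filter's minimum count of 10 in both libraries only of the WT groups. It entered the test through groups where it is high, so its lower call adds no independent support to this count. DESeq2 called 3 of the 8 members to which it gave an adjusted p (all but Il3 and Il22), with Il10, against 7.48% of all genes with one. The groups did not overlap for 6 of the 10 genes, against 49.7% of all genes. With the replicate number as a block, Il10 and Ifng were also called, which made 4 of 10 against 18.2% of all genes (1 higher and 3 lower, against 10.3% and 7.89%). The median log2 fold change over the 10 genes was -0.31, and -0.16 with low-count genes at their bound, against -0.01 over all genes. No member was called when any 1 of the 4 CD8 libraries was left out, and 1 (Lif) was called when any 1 of the 4 CD4 libraries was left out.

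**Figure D3:**
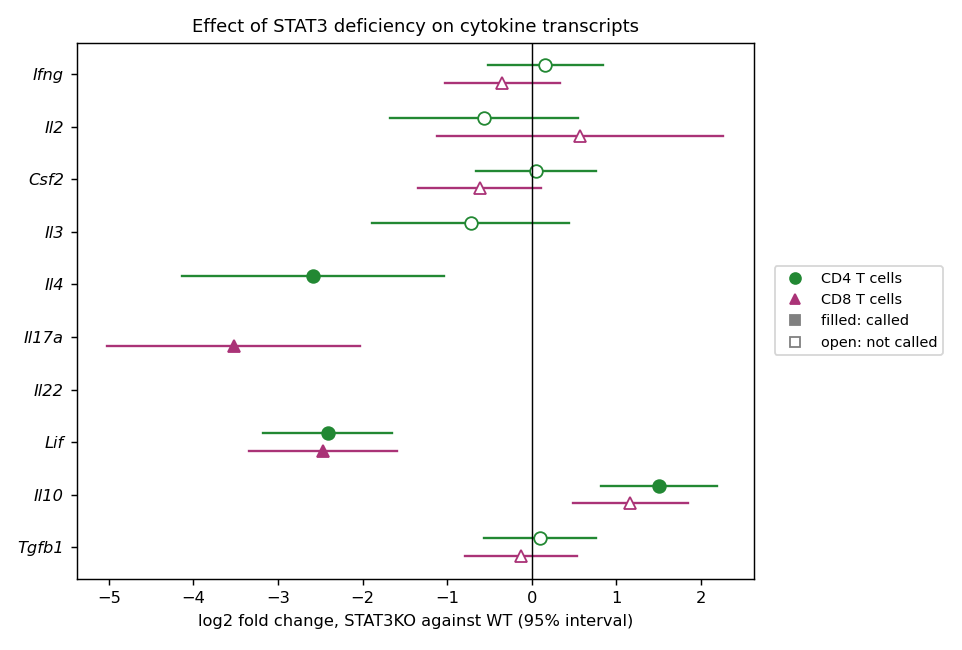
Log2 fold change of STAT3KO against WT (x axis) for each gene (y axis) in CD4 (circles) and CD8 T cells (triangles), with 95% intervals from the edgeR fit; filled symbols were called. Genes with 3 or fewer counts in a group are left out (Il17a and Il22 in CD4; Il3, Il4 and Il22 in CD8). Lif lies at -2.41 and -2.47, and Il10 at 1.50 and 1.17.

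Lif, whose product is a cytokine of the IL-6 family known for maintaining stem cells, fell in both cell types. In CD4 T cells it was at 189 and 112 CPM in WT and at 35.7 and 20.8 CPM in STAT3KO libraries. Its CD8 libraries were at 21.8 and 16.7 CPM with WT and at 4.0 and 2.98 CPM with STAT3KO donors. Both STAT3KO libraries lay below both WT libraries in each cell type. Among CD4 libraries the decrease was 5.33-fold, a log2 fold change of -2.41 ± 0.33 (SE) with an edgeR adjusted p of 0.00472. Among CD8 libraries it was 5.53-fold, or -2.47 ± 0.38, with an edgeR adjusted p of 0.0270. Between libraries of the same replicate number, the log2 difference was -2.41 and -2.42 in CD4 and -2.45 and -2.49 in CD8 T cells. In CD4 T cells the call held under all 16 alternatives (edgeR, DESeq2 or limma adjusted p at most 0.0347). The CD8 call was lost with limma on log2(RPKM + 1), where the log2 difference was -1.59 (limma adjusted p = 0.0563), and without WT CD8 replicate 1, WT CD8 replicate 2, STAT3KO CD8 replicate 1 or STAT3KO CD8 replicate 2 (edgeR adjusted p between 0.0829 and 0.165). The difference between the CD8 and CD4 effects was -0.05 on the log2 scale (95% interval -1.16 to 1.05).

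Il10, which encodes the regulatory cytokine IL-10, was higher in every STAT3KO library than in any WT library of the same cell type. Among CD4 libraries it was at 64.0 and 38.2 CPM with WT and at 140 and 150 CPM with STAT3KO donors. Among CD8 libraries it was at 53.9 and 31.6 CPM with WT and at 104 and 88.2 CPM with STAT3KO donors. With an edgeR adjusted p of 0.0178, it rose 2.83-fold in CD4 T cells (log2 fold change 1.50 ± 0.29). The CD8 difference was 1.17 ± 0.29 on the log2 scale and was not called (edgeR adjusted p = 0.0897), but it was called with the replicate number as a block (1.20, edgeR adjusted p = 0.00234), by DESeq2 (1.16, DESeq2 adjusted p = 0.00110) and with no filter on low counts (1.16, edgeR adjusted p = 0.0225). Between libraries of the same number, the log2 difference was 1.12 and 1.97 in CD4 and 0.95 and 1.48 in CD8 T cells. The CD4 call was lost without WT CD4 replicate 2, STAT3KO CD4 replicate 1 or STAT3KO CD4 replicate 2 (edgeR adjusted p between 0.0803 and 0.0913). The difference between the CD8 and CD4 effects was -0.33 (95% interval -1.29 to 0.62) and was not called. Macrophages and B cells can also express Il10. The macrophage and monocyte markers summed to 23.6 and 73.4 CPM with WT against 23.5 and 92.6 CPM with STAT3KO donors for CD4, and to 43.4 and 141 CPM against 57.8 and 119 CPM for CD8 libraries, which overlapped between genotypes. In CD4 libraries the 7 B cell markers summed to 108 and 93.3 CPM with WT against 151 and 171 CPM with STAT3KO donors. Nearly all of it was Cd22. In CD8 libraries they summed to 43.7 and 49.9 CPM with WT against 38.2 and 55.6 CPM with STAT3KO donors. Cd79b was at most 2.47 CPM in CD4 and between 11.5 and 12.9 CPM in CD8 libraries, while Ms4a1 and Cd79a were at most 0.337 CPM in any library. The part of macrophages and B cells in the Il10 result was not tested.

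Tgfb1, which encodes the regulatory cytokine TGF-β1, did not separate by genotype. Its CD4 libraries were at 110 and 69.8 CPM with WT and 110 and 82.4 CPM with STAT3KO donors, and its CD8 libraries at 117 and 77.8 CPM with WT and 102 and 76.2 CPM with STAT3KO donors. Groups overlapped in both cell types, and within each group replicate 2 was the lower library. The log2 difference was 0.10 (95% interval -0.56 to 0.76) in CD4 and -0.13 (-0.79 to 0.53) in CD8 T cells, and neither was called (edgeR adjusted p = 0.865 in both).

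The cytokines of the Th17 program, Il17a and Il22, had 3 or fewer counts in STAT3KO CD4 T cells. Il17a encodes the lead cytokine of Th17 cells, which recruits neutrophils through epithelial and stromal cells. In CD4 T cells it had 26 and 25 counts in the WT libraries and 0 and 1 in the STAT3KO libraries, so the 2 groups did not overlap. The ratio of STAT3KO to WT counts was 0.0193 (exact 95% interval 0.000479 to 0.112), and the decrease was called (edgeR adjusted p = 0.0178). That call was lost with limma on log2(RPKM + 1) (limma adjusted p = 0.0812) and without WT CD4 replicate 2, STAT3KO CD4 replicate 1 or STAT3KO CD4 replicate 2 (edgeR adjusted p between 0.0539 and 0.111). The CD8 counts of Il17a were 233 and 112 in the WT and 21 and 6 in the STAT3KO libraries, or 10.1 and 4.72 CPM against 1.01 and 0.271 CPM. It fell 11.5-fold (log2 fold change -3.53 ± 0.64, edgeR adjusted p = 0.0412), with log2 differences of -3.31 and -4.12 between libraries of the same number. The CD8 call was lost in a fit of the CD8 libraries alone (edgeR adjusted p = 0.0847) and without any 1 of the 8 libraries (edgeR adjusted p between 0.0570 and 0.165), with log2 differences between -4.75 and -2.87.

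Il22, which encodes a cytokine that acts on epithelial cells and maintains barrier surfaces, had 74 and 21 counts in the WT CD4 and 1 and 2 in the STAT3KO CD4 libraries. The ratio of STAT3KO to WT counts was 0.0311 (exact 95% interval 0.00630 to 0.0936), and the decrease was called (edgeR adjusted p = 0.0138). It was not called without STAT3KO CD4 replicate 1 or STAT3KO CD4 replicate 2 (edgeR adjusted p = 0.106 and 0.0930). The ratio is set by few counts on the STAT3KO side, and the WT libraries differed from each other, at 3.69 and 0.992 CPM. Among CD8 libraries Il22 had 5 and 4 counts in WT and 0 and 1 in STAT3KO libraries, a ratio of 0.121 (exact 95% interval 0.00277 to 0.876), which was not called (edgeR adjusted p = 0.290). Intervals of counts cover counting error only.

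Innate-like cells can also make these cytokines. Of the 7 markers of NK cells and innate lymphoid cells, Klra8 and Klra4 were at 0 in all 8 libraries and Ncr1 was at most 0.25 CPM. The list summed to 600 and 728 CPM with WT against 1012 and 964 CPM with STAT3KO donors for CD4, and to 322 and 413 CPM against 549 and 475 CPM for CD8 libraries, and most of it was Il7r, which T cells also express. These sums were higher in STAT3KO libraries, where Il17a and Il22 were lower, and their part in the result was not tested.

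Il4 encodes the lead cytokine of Th2 cells, which drives antibody class switching and alternative macrophage activation. WT CD4 libraries were at 9.68 and 3.40 CPM, or 194 and 72 counts, and STAT3KO CD4 libraries at 1.40 and 0.777 CPM, or 28 and 17 counts. Both WT libraries lay above both STAT3KO libraries, but they were far apart from each other. It fell 6.00-fold (log2 fold change -2.58 ± 0.67, edgeR adjusted p = 0.0460), with log2 differences of -2.79 and -2.13 between libraries of the same number. The call was lost without WT CD4 replicate 1 (log2 difference -1.67, edgeR adjusted p = 0.206), without STAT3KO CD4 replicate 1 or 2 (edgeR adjusted p = 0.136 and 0.224), and without WT CD8 replicate 1 or 2 (edgeR adjusted p = 0.0553 and 0.0548). Among CD8 libraries Il4 had 2 and 2 counts in WT and 0 and 3 in STAT3KO libraries. The mast cell and basophil markers summed to 1.45 and 0.614 CPM with WT against 0.900 and 5.76 CPM with STAT3KO donors in CD4 libraries, and their part in the Il4 difference was not tested.

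Ifng, which encodes the macrophage-activating cytokine IFN-γ, was at 374 and 235 CPM in WT against 411 and 270 CPM in STAT3KO CD4 libraries. CD8 libraries held 656 and 490 CPM with WT and 520 and 381 CPM with STAT3KO donors. The genotypes overlapped in both cell types, while replicate 2 was lower than replicate 1 in every group. The log2 difference was 0.16 (95% interval -0.52 to 0.84) in CD4 and -0.35 (-1.03 to 0.33) in CD8 T cells, and neither was called (edgeR adjusted p = 0.780 and 0.590). Between libraries of the same number, the log2 difference in CD8 T cells was -0.34 and -0.36, and with the replicate number as a block it was called (-0.35, edgeR adjusted p = 0.0211). The CD4 differences within number were 0.14 and 0.20 and were not called with the block (edgeR adjusted p = 0.178). The difference between the CD8 and CD4 effects was -0.51 (95% interval -1.47 to 0.46) and was not called.

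Il2, Csf2 and Il3 encode growth factors for T cells, for granulocytes and macrophages, and for early hematopoietic cells. Il2 was at 5.29 and 3.59 CPM in WT against 3.05 and 2.92 CPM in STAT3KO CD4 libraries, a log2 difference of -0.57 (95% interval -1.68 to 0.54) that was not called although the groups did not overlap. Among CD8 libraries Il2 had 7 and 1 counts with WT and 6 and 5 with STAT3KO donors. Csf2 was at 16.9 and 10.4 CPM in WT against 15.6 and 12.8 CPM in STAT3KO CD4 libraries, which overlapped (log2 difference 0.05, 95% interval -0.65 to 0.76). Its CD8 libraries were at 13.7 and 7.87 CPM with WT and 6.85 and 7.22 CPM with STAT3KO donors, with a log2 difference of -0.62 (95% interval -1.34 to 0.11) that was not called. Il3 had 18 and 13 counts in WT CD4 and 10 and 9 in STAT3KO CD4 libraries, a log2 difference of -0.72 (95% interval -1.89 to 0.45) that was not called. Among CD8 libraries Il3 had 0 and 0 counts in WT and 1 and 1 in STAT3KO libraries, both under 3 counts over the group, so no fold is given.

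Whether STAT3 deficiency acted differently in CD8 than in CD4 T cells was tested for each member by the interaction of genotype and cell type, and none of the 10 was called, against 0% of all genes tested. At an unadjusted p under 0.05, 1 of the 10 passed (Il3, whose CD8 counts are too few for a fold), against 7.9% of all genes. The edgeR fit with a replicate block also called 0 of the 10, against 3.24% of all genes, and DESeq2 called 0 of the 6 members to which it gave an adjusted p (all but Il2, Il3, Il4 and Il22), against 1.75% of all genes with one. Ifng came nearest with the block, at a log2 difference of -0.52 (edgeR adjusted p = 0.0519), and it was -0.47 and -0.56 between libraries of the same number. Limma on log2(RPKM + 1) also called 0 of the 10, against 13 of the 12428 genes tested. In the fit without the block, the 95% interval of the difference ran from -0.90 to 3.17 for Il2 and from -1.68 to 0.34 for Csf2, so that sizeable differences in either direction lie within it.

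The cell types themselves were compared within each genotype. In WT T cells, Il2, Il3, Il4, Il22 and Lif were lower in CD8 than in CD4 T cells and Il17a was higher, so that 6 of 10 genes were called, against 23.8% of all genes tested (1 higher and 5 lower, against 12.2% and 11.6%), and 7 of 10 had groups that did not overlap, against 59.3% of all genes. In STAT3KO T cells, Il2, Il3, Il4 and Lif were lower and Il17a higher in CD8 T cells, so that 5 of 10 were called, against 12.5% of all genes (1 higher and 4 lower, against 5.84% and 6.67%), and 8 of 10 did not overlap, against 58.3%. With the replicate number as a block, Ifng, Il10 and Csf2 were also called in STAT3KO T cells, which made 8 of 10, against 29.7% of all genes, and Ifng in WT T cells, which made 7 of 10, against 42.1%. Il2, Il3, Il4 and Il22 reached the filter's minimum count of 10 only in CD4 libraries. They entered the test through the cell type where they are high, so their lower calls in CD8 T cells add no independent support to these counts.

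Lif was 7.80-fold lower in CD8 than in CD4 T cells of the WT (-2.96 ± 0.34, edgeR adjusted p = 0.000833) and 8.09-fold lower in STAT3KO T cells (-3.02 ± 0.38, edgeR adjusted p = 0.00310), and the call held under all 16 alternatives in both. Il2 was 25.1-fold lower in WT (-4.65 ± 0.62, edgeR adjusted p = 0.00163) and 11.4-fold lower in STAT3KO CD8 T cells (-3.51 ± 0.59, edgeR adjusted p = 0.00971). The WT value was -6.55 on leaving out WT CD8 replicate 1 and -3.86 on leaving out its replicate 2. The STAT3KO call was lost without STAT3KO CD4 replicate 1, STAT3KO CD8 replicate 1 or STAT3KO CD8 replicate 2 (edgeR adjusted p between 0.0525 and 0.0668). Il4 had 266 counts over the 2 WT CD4 and 4 over the 2 WT CD8 libraries (log2 fold change -6.17 ± 0.88, edgeR adjusted p = 0.00223; -5.24 without WT CD4 replicate 1). In STAT3KO T cells it had 45 and 3 counts, a ratio of CD8 to CD4 of 0.0651 (exact 95% interval 0.0129 to 0.203, edgeR adjusted p = 0.0393). This call was lost with limma on log2(RPKM + 1) (limma adjusted p = 0.125) and without either STAT3KO CD4 library, either STAT3KO CD8 library or either WT CD8 library (edgeR adjusted p between 0.0538 and 0.169). Within each genotype, both CD4 libraries held more CPM of Lif, Il2 and Il4 than either CD8 library.

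Il3 had 31 counts over the WT CD4 libraries and 0 over the WT CD8 libraries, at least 11.8-fold lower in CD8 against a floor of 3 counts over the group (edgeR adjusted p = 0.00258). In STAT3KO T cells it had 19 and 2 counts, a ratio of 0.103 (exact 95% interval 0.0116 to 0.426, edgeR adjusted p = 0.0321). The latter call was lost with DESeq2 (DESeq2 adjusted p = 0.143) and without either WT CD4 library, either STAT3KO CD4 library or either STAT3KO CD8 library (edgeR adjusted p between 0.0572 and 0.165). Il22 was 11.8-fold lower in WT CD8 T cells (-3.57 ± 0.77, edgeR adjusted p = 0.0137). It was not called without WT CD4 replicate 1, where the log2 difference was -2.35, or without WT CD8 replicate 1 or 2 (edgeR adjusted p between 0.0734 and 0.0870), and was -4.24 without WT CD4 replicate 2. In STAT3KO T cells Il22 had 3 counts in CD4 and 1 in CD8 libraries, so no fold is given.

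Il17a went the other way and was higher in CD8 T cells. In the WT it was at 10.1 and 4.72 CPM in CD8 and at 1.30 and 1.18 CPM in CD4 T cells, 5.94-fold higher in CD8 (log2 fold change 2.57 ± 0.60, edgeR adjusted p = 0.0188). The call was lost without WT CD4 replicate 1, WT CD4 replicate 2 or WT CD8 replicate 1, where the log2 difference was 1.91 at the lowest (edgeR adjusted p between 0.0757 and 0.125). In STAT3KO T cells it had 27 counts in CD8 and 1 in CD4 libraries, a ratio of 26.4 (exact 95% interval 4.34 to 1079, edgeR adjusted p = 0.0426). That call was lost with limma on log2(RPKM + 1) (limma adjusted p = 0.296) and without either WT CD4 library, either STAT3KO CD4 library or STAT3KO CD8 replicate 1 (edgeR adjusted p between 0.0537 and 0.208).

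Ifng was higher in both WT CD8 than in both WT CD4 libraries, 1.88-fold (log2 difference 0.91 ± 0.30), but was not called (edgeR adjusted p = 0.0608). It was called with the replicate block (edgeR adjusted p = 1.6e-05), by DESeq2 (DESeq2 adjusted p = 0.00449), by edgeR with library totals (adjusted p = 0.0491) or with no filter (adjusted p = 0.0205), and without WT CD4 replicate 1 (edgeR adjusted p = 0.0381). In STAT3KO T cells the log2 difference was 0.40 ± 0.29 with overlapping groups, and of the 16 alternatives only the block called it (0.42, edgeR adjusted p = 0.00498). Csf2 was lower in STAT3KO CD8 than in STAT3KO CD4 T cells by a log2 difference of -1.01 ± 0.31, which was not called (edgeR adjusted p = 0.0766), but 6 of the 16 alternatives called it, among them the block (-0.99, edgeR adjusted p = 0.00408) and DESeq2 (-1.01, DESeq2 adjusted p = 0.0231). Il10 differed by -0.59 ± 0.29 between STAT3KO CD8 and CD4 T cells and was not called (edgeR adjusted p = 0.234), but was called with the block (-0.61, edgeR adjusted p = 0.0240) and in a fit of the STAT3KO libraries alone (-0.59, edgeR adjusted p = 0.0238). Tgfb1 overlapped between the cell types in both genotypes. In WT T cells Il10 and Csf2 also overlapped, with log2 differences of -0.26 and -0.34.

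**Figure D4:**
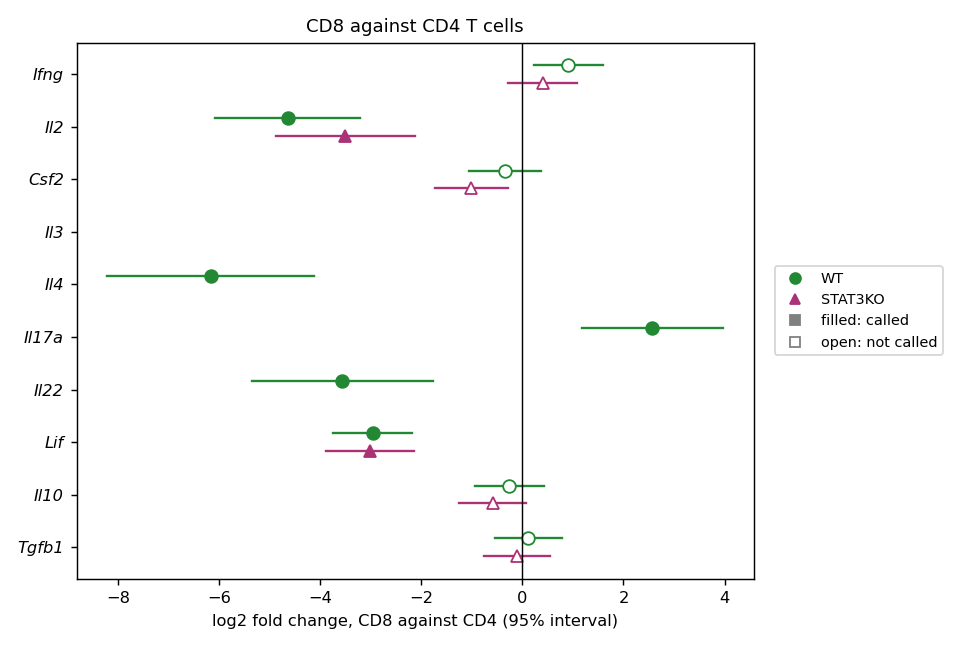
Log2 fold change of CD8 against CD4 T cells (x axis) for each gene (y axis) in WT (circles) and STAT3KO (triangles), with 95% intervals from the edgeR fit; filled symbols were called. Genes with 3 or fewer counts in a group are left out (Il3 in both genotypes; Il4, Il17a and Il22 in STAT3KO). Lif lies at -2.96 and -3.02, Il2 at -4.65 and -3.51, and Il17a at 2.57 in WT.

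Over the 8 libraries, the genes whose log2 CPM followed a member most closely were named as a description, among 8758 genes whose log2 CPM averaged 3 or more. For Il10 they were Herc6, Parp11 and Art2b (Pearson r 0.993, 0.990 and 0.984). For Lif they were Slc25a1, Faap20 and Rapgef2 (0.996, 0.995 and 0.994), and for Tgfb1 Vps26b, Gga1 and Nudt3 (0.996, 0.989 and 0.983). For Ifng they were Mospd3, Cc2d1b and Exosc6 (0.990, 0.988 and 0.983), and for Csf2 Tesk1, Cdyl2 and Smg6 (0.979, 0.973 and 0.964). Il2 was followed by Rassf3, Gzf1 and Ikbke (0.983, 0.983 and 0.976), Il4 by Camk2d and Igf2bp3 (0.991 and 0.988), and Il3 by Jak2, Slc26a11 and Snx30 (0.989, 0.988 and 0.987). Il17a was followed by Chst11, Uck2 and Ciapin1 (0.980, 0.977 and 0.976), and Il22 by Fto, Xpr1 and Slc45a4 (0.986, 0.980 and 0.975). Between members, the highest r was 0.975 for Il2 with Il3, and the lowest was -0.81 for Il10 with Il17a. These 8 points fall into 4 groups that differ in both genotype and cell type, and all r values share the same libraries; for Il3, Il4, Il17a and Il22 many of the points rest on few counts.

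Other genes of cytokine pathways were described by lists, whose counts of higher and lower calls stand against 6.54% and 5.08% of all genes in CD4 and 1.34% and 0.732% in CD8 T cells, or 16.5% and 13.7% and 10.3% and 7.89% with the block. Of 22 other T cell cytokine genes, 14 were tested, of which 0 were called higher and 2 lower in STAT3KO CD4 T cells, with a median log2 fold change of -0.24. These were Tgfb3, another TGF-β, at 27.4 and 18.1 CPM with WT and 7.35 and 4.43 CPM with STAT3KO donors (log2 fold change -1.95 ± 0.30, edgeR adjusted p = 0.00703; 420 exon bases shared with other genes of the opposite strand), and Il17f, the neighbour and relative of Il17a. Il17f had 25 counts in WT and 3 in STAT3KO CD4 libraries (ratio 0.118, exact 95% interval 0.0228 to 0.387, edgeR adjusted p = 0.0330). It did not reach the filter's minimum count of 10 in STAT3KO CD4 libraries, so its lower call adds no independent support to the list's count. Among CD8 libraries 1 of the 14 was called: Osm, which like LIF is a cytokine of the IL-6 family, was at 20.7 and 17.1 CPM with WT and 9.07 and 7.49 CPM with STAT3KO donors (log2 fold change -1.19 ± 0.22, edgeR adjusted p = 0.0401), with a list median of -0.15. With the block, 2 were called higher and 6 lower in CD4, and 2 higher and 3 lower in CD8 T cells. Of the 8 that were not tested, Il9, Il24, Il31 and Il25 had no count in any library.

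Among 22 receptor genes for these cytokines, 19 were tested, and 2 were higher and 1 lower in STAT3KO CD4 T cells, against 6.54% and 5.08% of all genes (median log2 fold change 0.13), or 3 and 3 with the block, against 16.5% and 13.7%. In CD8 T cells the block called 2 higher and 1 lower. Il10ra, which encodes the IL-10-binding receptor chain, held 97.4 and 78.4 CPM in WT against 285 and 256 CPM in STAT3KO libraries of CD4 T cells (1.62 on the log2 scale, SE 0.15, edgeR adjusted p = 0.00142), and it was also higher in STAT3KO CD8 T cells (0.80 ± 0.15, edgeR adjusted p = 0.0457), where it alone was called without the block (median -0.03). Il2rb, a signalling chain of the IL-2 and IL-15 receptors, rose in STAT3KO CD4 T cells (0.91 ± 0.10, edgeR adjusted p = 0.00217), and Il4ra, the signalling chain of the IL-4 receptor, fell (-1.07 ± 0.16, edgeR adjusted p = 0.00711). Il4ra shares 571 exon bases with an antisense gene.

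All 33 regulators of cytokine genes were tested, and 4 were higher and 3 lower in STAT3KO CD4 T cells, against 6.54% and 5.08% of all genes (median log2 fold change -0.16), or 7 and 12 with the block, against 16.5% and 13.7%. Eomes, a T-box factor of effector T cells, rose (log2 fold change 2.03 ± 0.29, edgeR adjusted p = 0.00551; 118 exon bases shared with an antisense gene), as did Prdm1, which encodes the repressor Blimp-1 (0.94 ± 0.19, edgeR adjusted p = 0.0192). Stat5a fell (-1.32 ± 0.10, edgeR adjusted p = 0.000806), and 72 of its exon bases lie within Stat3 on the opposite strand. Among CD8 libraries 1 of the 33 was called higher and 0 lower (list median -0.12), or 4 and 6 with the block.

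Of the IFN-γ response genes, more were called higher than lower in STAT3KO T cells of both types, while Ifng itself was called in neither without the block. Of 22 genes, 21 were tested, and 13 were higher and 1 lower in STAT3KO CD4 T cells, with a median log2 fold change of 0.67 against 0.02 over all genes tested, or 17 higher and 1 lower with the block. The guanylate-binding protein genes Gbp7 and Gbp3 rose by 1.42 ± 0.11 and 1.33 ± 0.11 on the log2 scale (edgeR adjusted p = 0.000853 and 0.00101), and the immunity-related GTPase genes Iigp1 and Irgm1 by 2.11 ± 0.54 and 1.06 ± 0.12 (edgeR adjusted p = 0.0452 and 0.00217). STAT3KO CD8 T cells had 6 higher and 0 lower, with a median of 0.50 against -0.01 over all genes, or 10 higher and 1 lower with the block. The gene of the list that fell in CD4 T cells was Socs1, which encodes an inhibitor of cytokine signalling (-0.87 ± 0.21, edgeR adjusted p = 0.0347). In CD8 T cells Irgm2, Gbp7, Irgm1 and Gbp3 rose by 0.88, 0.76, 0.75 and 0.69 (edgeR adjusted p between 0.0217 and 0.0284). Many of these genes also respond to type I interferon, and the list does not tell the 2 inputs apart. Gbp7 shares 637 exon bases with a processed pseudogene on its own strand.

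Of 16 genes of TGF-β activation and signalling, 15 were tested, and 0 were higher and 2 lower in STAT3KO CD4 T cells (median log2 fold change -0.00122), or 1 and 4 with the block. Ltbp3, a latent TGF-β-binding protein gene, was at 1.95 and 2.22 CPM in WT and 0.200 and 0.229 CPM in STAT3KO libraries (-3.24 ± 0.54, edgeR adjusted p = 0.00984), and its counts are uncertain because its exons overlap another gene. Ski, a repressor of SMAD signalling, fell by 0.37 on the log2 scale (SE 0.096, edgeR adjusted p = 0.0461). Among CD8 libraries the lowest edgeR adjusted p of the list was 0.167, for Ltbp3 (-1.42 ± 0.49), and with the block 1 gene was called lower (median 0.04, and 0 with low-count genes at their bound).

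**Figure D5:**
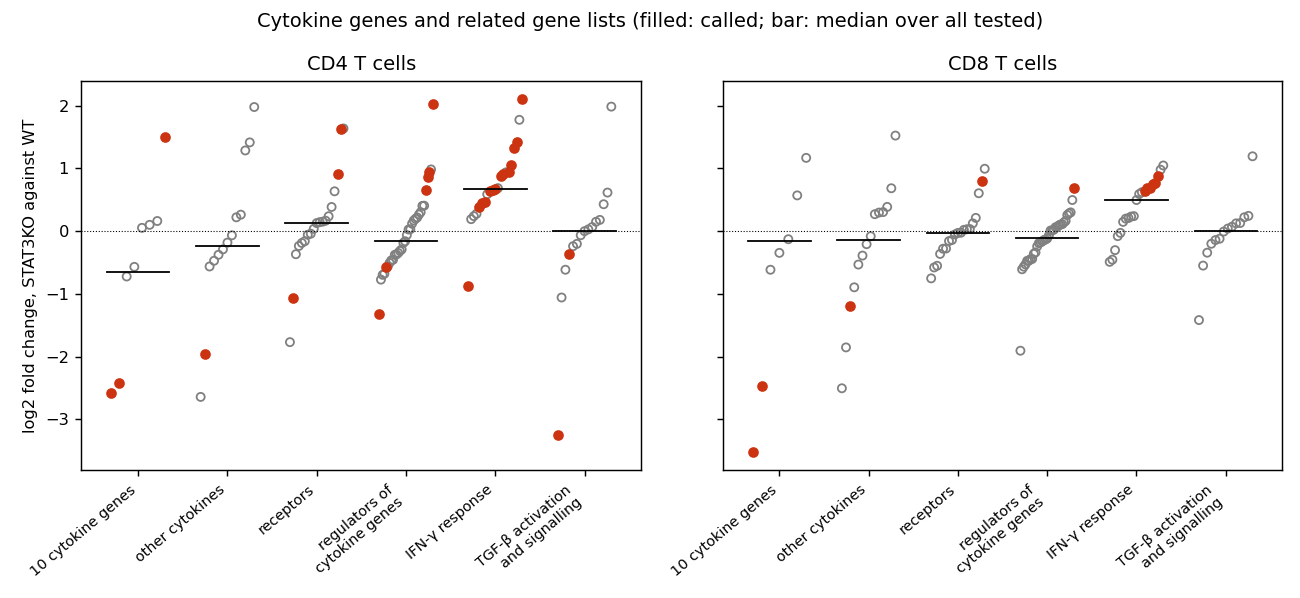
Log2 fold change of STAT3KO against WT (y axis) for the tested genes of each list (x axis) in CD4 (left) and CD8 T cells (right), leaving out genes with 3 or fewer counts in a group. Filled points were called, and bars are medians over all tested genes of the list with low-count genes at the bound of their interval. The IFN-γ response list has medians of 0.67 and 0.50.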

How the data were processed

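The authors aligned single-end reads to mm10 with STAR v2.7 and assigned them to RefSeq genes with HTSeq-count v0.11, and deposited a table of raw counts and one of RPKM, which divides by library size and exon length. Whether counting used strand is not given in the sources used here, and the labels and the study's methods name different library kits. Here, counts were tested with edgeR 4.0.16 (R 4.3.3): TMM scaling, filterByExpr with a minimum count of 10, the quasi-likelihood F test on group means over all 8 libraries, and Benjamini-Hochberg adjusted p under 0.05 over 12428 genes. Fitted differences are log2, and levels are TMM-scaled CPM. Depth was 20171396 to 23282757 counts per library, and 26 gene names had become dates in the tables. The groups follow the genotype and cell type labels.

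The 10 genes and the gene lists were chosen with earlier results of these data known. The text names all 10, from each list the called genes with the largest changes, and the 3 genes that followed each member most closely, except that a few genes under these rules are not reported here; Batf, Ikzf3 and other called genes are in the counts only, and Socs1 was named after its values were seen. Groups with 3 or fewer counts are given as count ratios with exact 95% intervals, and a group at 0 against a floor of 3 counts. After the fit was seen, the size of the difference between CD8 and CD4 effects was left out for Il3, because its CD8 counts were 0 and 0 against 1 and 1. Il3 stayed in the counts of genes called or passing. Its fitted difference had an edgeR unadjusted p of 0.0455 and an edgeR adjusted p of 0.619. Same-numbered libraries of different groups deviated together (r between 0.48 and 0.81 for all 6 pairs of groups, over 8758 genes). The numbers in the titles were therefore taken to pair the samples in the block and in the differences between same-numbered libraries. The fit that gave the main calls had no block and did not use this pairing. What the numbers mark is not given in the sources used here. Alternatives were DESeq2 1.42.0, limma 3.58.1 on the log2 of the authors' deposited RPKM plus 1, other scalings and filters, the block, the compared groups alone and each library left out. The fit was tested on simulated data. Annotation came from GENCODE M21 and promoters from RefSeq, both on GRCm38, the build of the files; 9 of the 10 genes had a promoter.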

Additional observations from a re-analysis of the deposited data

How the results depend on the processing

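With 2 pooled libraries per group, the number of libraries limits the precision, and for Il17a, Il22, Il3 and, in CD8 T cells, Il2 and Il4, the counts do. Of the alternatives for single genes, 623 kept direction and call, 57 lost a call, 18 gained one and 29 changed sign. In CD4 T cells 5 genes were called STAT3KO against WT, and between 1 and 5 when 1 library was left out. In CD8 T cells 2 were called, 4 with the replicate number as a block, 1 with the CD8 libraries alone, 1 with limma, and between 0 and 1 when 1 library was left out. For CD8 against CD4 in STAT3KO, 5 were called, 8 with the block, 3 with limma, and between 1 and 5 when 1 library was left out. For CD8 against CD4 in WT, 6 were called, and between 4 and 7 under all alternatives. The block changed no other count by over 1.5 times, and the cause of these shifts was not tested.

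All changes of sign were in differences that were not called. The ranges given are the lowest and highest log2 differences when 1 library was left out, for the genes whose sign changed. For STAT3KO against WT in CD4 T cells they were -0.20 to 0.51 for Ifng, -0.26 to 0.41 for Csf2 and -0.20 to 0.44 for Tgfb1. In CD8 T cells they were -0.24 to 2.44 for Il2, -3.97 to 0.63 for Il4 and -0.40 to 0.19 for Tgfb1. For the difference between both effects they were -0.47 to 0.40 for Lif, -0.58 to 0.11 for Tgfb1, -1.37 to 3.22 for Il4, -0.74 to 0.11 for Il10 and -0.15 to 2.97 for Il22, while limma gave -1.18 for Il17a and 0.68 for Lif. For CD8 against CD4 they were -0.71 to 0.15 for Il10, -0.81 to 0.030 for Csf2 and -0.22 to 0.47 for Tgfb1 in WT, and -0.35 to 0.12 for Tgfb1 in STAT3KO T cells.

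Over all genes, the count of calls also moved with the method. In CD4 T cells edgeR called 1444 genes, 3747 with the block and 1814 by DESeq2, and in CD8 T cells 257, 2258 and 844. For the difference between the effects these counts were 0, 403 and 180.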
